A study of Phaffia rhodozyma with 29 samples.

Results

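The RNA-seq libraries of a strain of the carotenoid-producing yeast Xanthophyllomyces dendrorhous that carried a FLAG-tagged Sre1 were compared with those of a strain with both an SRE1 deletion and an interrupted CYP61 locus, called the double mutant below. Both strains have the same wild-type parent, were grown to the late exponential phase under standard conditions, and gave 3 biological replicates each, named A, B and C. These 6 libraries were chosen from 18 RNA-seq libraries and 29 samples in all by the strain in their labels; the comparison itself was chosen with earlier results of these data known. The comparison spans a strain with tagged Sre1 and a strain without Sre1, inside 1 set of count tables that the headers describe as made from paired, trimmed reads. Used beside them were cyp61- (interrupted CYP61) and wild type (N), from the same set of tables, and sre1- (SRE1 deletion) and wild type (Ne), whose headers do not name paired or trimmed reads, with 3 libraries each. N and Ne are the only suffixes that set the labels of the wild-type libraries apart.

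Sre1 belongs to the sterol regulatory element-binding proteins, transcription factors that are held in a membrane and released to the nucleus when sterols run low, where they turn on genes of sterol synthesis and uptake. CYP61 encodes a sterol desaturase that acts late in ergosterol synthesis, so that its loss leaves the cell without ergosterol. X. dendrorhous makes the carotenoid astaxanthin from isoprenoid precursors that sterol synthesis also uses, and its cyp61- mutants are known to make more carotenoids. FLAG is a short peptide tag recognised by an antibody, and the tagged strains were also used for ChIP-exo.

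Several facts limit the strains as models of Sre1 present and absent. The design text names a pair of tagged strains, CBS.FLAG.SRE1N and the cyp61- strain CBS.cyp61-.FLAG.SRE1, and which of them gave the RNA is not stated in the labels, so a difference between the strains compared may follow SRE1, the tag or CYP61, which cannot be told apart here. The labels do not state whether the tagged protein is of full length, what the N in the first name stands for, or how many independent clones each strain stands for. The files pair gene identifiers with contigs but with no name, product or position, so neither SRE1 nor CYP61 could be looked up, no gene is given a role, and no pathway list was run. Genes are named by identifier for the 2 largest rises and falls and otherwise by contig and rank. Reads are counted per gene and not per length, so levels are compared between strains and not between genes.

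The 6 libraries were deep and fell apart by strain. Total counts were 9300589, 18326749 and 20663214 in the tagged strain A, B and C and 19937206, 18149792 and 16677785 in the double mutant A, B and C. Spearman correlations over tested genes were 0.973 to 0.984 between tagged libraries and 0.975 to 0.989 between double mutant libraries, against 0.826 to 0.872 for a tagged and a double mutant library. The biological coefficient of variation was 17.5% in the tagged strain and 16.4% in the double mutant. Of the 6469 genes in the files, 6228 passed a filter on low counts and were tested. Of the other 241, 167 had no count in any of the 6 libraries, and none of the 241 was above 1.61 CPM (counts scaled to library size) in any of them, before the TMM scaling (trimmed mean of M-values, which evens out libraries of different composition) that all other levels carry.

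More than 1 gene in 2 differed between the strains. At a Benjamini-Hochberg adjusted p under 0.05 in edgeR's quasi-likelihood test, 3574 genes (57.4% of those tested) were called, 1847 higher (29.7%) and 1727 lower (27.7%) in the tagged strain. Most changes were moderate: the median change was 1.81-fold among the higher genes and 1.97-fold among the lower ones, and 2008 of the called genes differed by less than 2-fold. At least a 2-fold difference was called for 719 higher genes (11.5%) and 847 lower genes (13.6%), at least 4-fold for 153 higher and 213 lower, and at least 16-fold for 24 higher and 15 lower. A test of whether the change was itself larger than 2-fold called 643 genes (10.3%), 276 higher and 367 lower.

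Most called genes had the strains' libraries apart, and 106 of the 3574 had overlapping groups. Of the 719 genes at least 2-fold higher, 710 had all 3 tagged libraries above all 3 double mutant libraries, an arrangement found in 33.4% of all tested genes. Of the 847 at least 2-fold lower, 844 had all tagged libraries below all double mutant libraries, against 32.7% of all tested genes. The choice by adjusted p and fold nearly fixes this, so it is a description of the called genes. Taken 1 library against 1, the median log2 ratio of the 719 genes was 1.22 to 1.56 over the 9 pairs of a tagged and a double mutant library, and that of the 847 genes was -1.55 to -1.24. Tagged A was the highest of the tagged libraries for 376 of the 719 genes and the lowest for 389 of the 847, while tagged B was most often the least extreme. Tagged A was also the library with the fewest counts; the part of its depth in this was not tested, but without it 3195 genes were still called. Leaving out each of the 6 libraries in turn, 2717 genes were called every time in the same direction, 1362 higher and 1355 lower, and among them were 677 of the 719 and 803 of the 847.

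The split between directions depends on how libraries are scaled. With TMM factors the median log2 fold change over all genes was 0.02 and 51.7% of called genes were higher. With library totals alone, a setting added after the data were seen, the median gene shifted up by 0.30 on the log2 scale, and 2549 genes were called higher and 1055 lower (70.7% higher). Directions below are those after TMM scaling. For the 4 genes named by identifier and the other 36 of largest change described by rank, no scaling tried turned the direction.

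**Figure D1:**
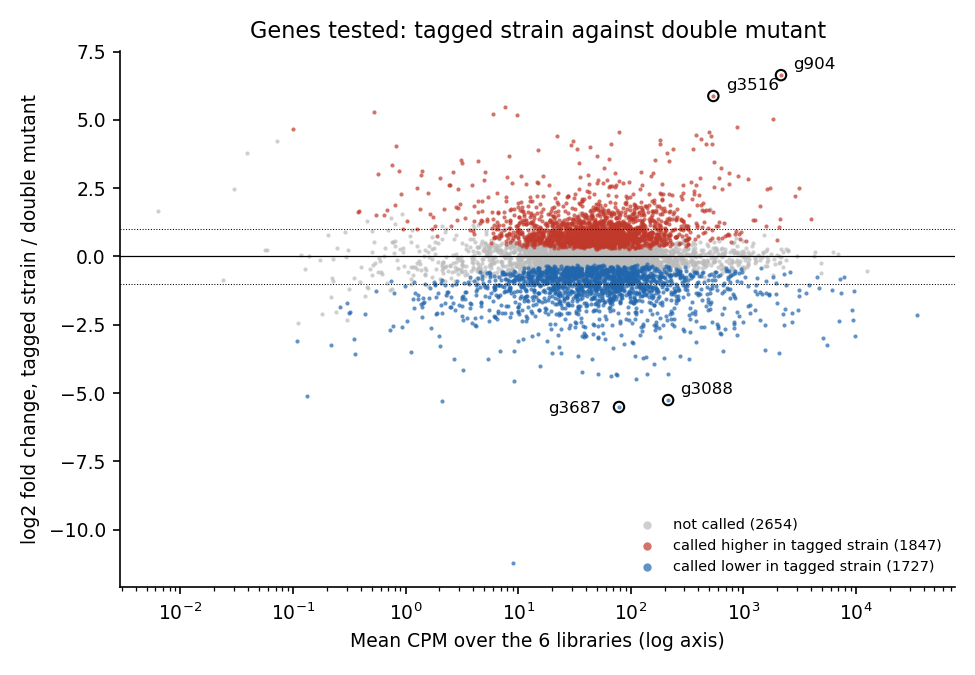
Each point is 1 of 6228 genes, with its mean CPM over the 6 libraries on a log axis and its log2 fold change, tagged strain over double mutant. The 1847 genes called higher and the 1727 called lower spread over the whole range of levels, and the dotted lines mark a 2-fold difference.

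The largest rise was that of g904 on contig 3. It had 3408, 3914 and 5528 CPM in the tagged strain A, B and C, against 48.7, 37.3 and 43.0 CPM in the double mutant A, B and C. The groups lay far apart, and tagged C was the highest. The mean was 4283 ± 1107 CPM in the tagged strain and 43.0 ± 5.71 CPM in the double mutant (SD, n = 3 each), a 99.6-fold difference (log2 fold change 6.64 ± 0.39, SE, edgeR adjusted p = 2.75e-09). In cyp61- its level was 2740 ± 861 CPM, and wild type (N) had 150 ± 25.1 CPM. Between the tagged strain and cyp61- the log2 fold change was 0.64 ± 0.30 (SE), which did not pass the threshold (edgeR adjusted p = 0.113).

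The second rise was that of g3516 on contig 0. It had 993.6, 932 and 1273 CPM in the tagged strain, against 18.3, 17.0 and 19.3 CPM in the double mutant, where the libraries differed little. The log2 fold change was 5.87 ± 0.32 (SE, edgeR adjusted p = 1.63e-09), a 58.7-fold difference. In cyp61- it was 411 ± 132 CPM and in wild type (N) 44.1 ± 3.36 CPM, between the strains compared in both cases.

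The largest fall was that of g3687, also on contig 0. It had 4.21, 3.61 and 2.52 CPM in the tagged strain, against 130.3, 111 and 220.3 CPM in the double mutant. No tagged library came near a double mutant library. The means were 3.44 ± 0.86 CPM in the tagged strain and 154 ± 58.3 CPM in the double mutant, and the log2 fold change was -5.51 ± 0.42 (SE, edgeR adjusted p = 6.90e-08). For cyp61- the level was 50.1 ± 25.2 CPM and in wild type (N) 98.7 ± 16.0 CPM. Against cyp61-, g3687 was also called lower in the tagged strain (log2 fold change -3.89 ± 0.40, SE, edgeR adjusted p = 1.1e-05).

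The next fall was that of g3088, on the same contig. It had 9.31, 13.8 and 9.69 CPM in the tagged strain, against 375, 214 and 668 CPM in the double mutant, whose highest library, C, stood well above its lowest, B. The log2 fold change was -5.25 ± 0.49 (SE, edgeR adjusted p = 5.59e-07). Against cyp61-, g3088 was also called lower in the tagged strain (log2 fold change -3.62 ± 0.46, SE, edgeR adjusted p = 6.8e-05). It lay next by number to the fifth-ranked fall, and the sixth- and seventh-ranked falls lay next to each other, 9 to 10 places from g3088. The fifth and sixth falls had nearly equal counts in each of the 6 libraries, with ratios of 0.928 to 1.15 in the tagged strain and 0.952 to 1.05 in the double mutant, but over all 18 libraries the lowest ratio was 0.551. The second and seventh had ratios of 0.993 to 1.15 in the double mutant but 0.479 to 0.58 in the tagged strain. If such genes are near-identical copies, the counting could have split or merged their reads, so these 4 falls are uncertain as separate events, and their sequences were not used here.

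**Figure D2:**
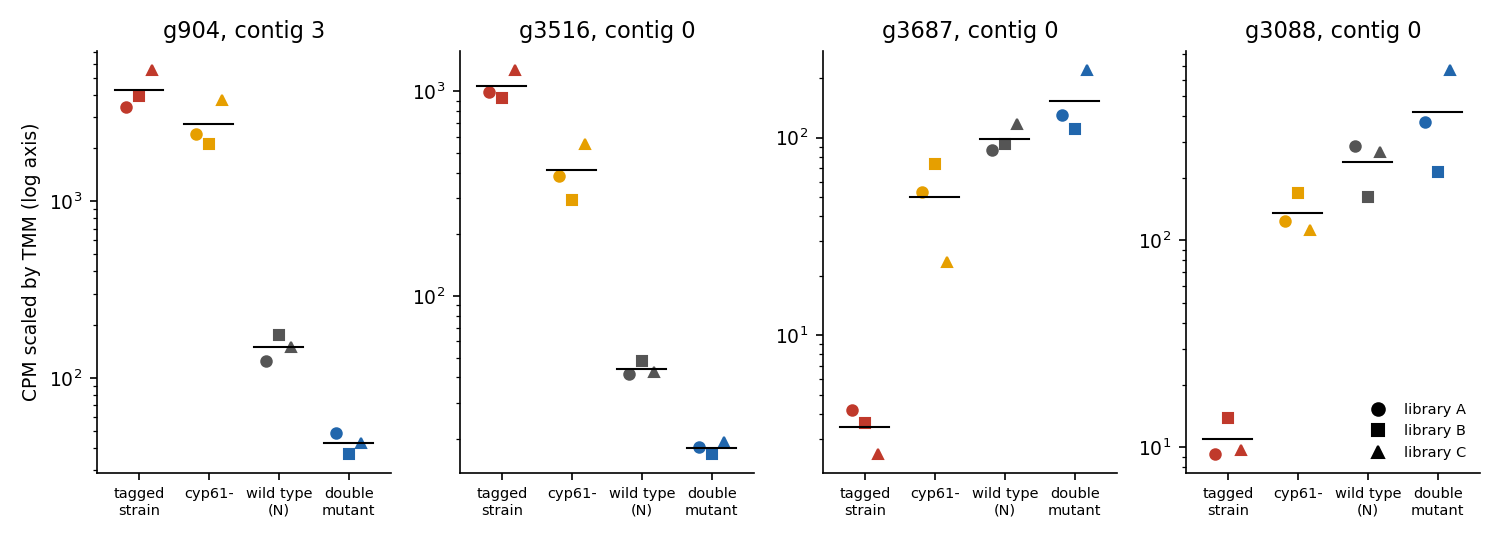
CPM scaled by TMM on log axes for g904, g3516, g3687 and g3088 in the 12 libraries from paired, trimmed reads, with the strain mean as a bar and libraries A, B and C as circle, square and triangle. The tagged strain and the double mutant take the extreme means in all 4 panels, with cyp61- and wild type (N) between them.

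The 20 largest rises and the 20 largest falls that met the same criteria (adjusted p under 0.05, at least 2-fold, a mean of at least 10 CPM over the 6 libraries, groups apart) were chosen by size. These criteria were met by 622 higher and 700 lower genes. The 20 rises were 15.4-fold to 99.6-fold, lay on 9 contigs and had a median level of 701 CPM in the tagged strain and 30.7 CPM in the double mutant. The 20 falls were 12.4-fold to 45.5-fold and lay on 8 contigs, 7 of the falls on contig 0. Their median level was 10.3 CPM in the tagged strain and 209 CPM in the double mutant. Contig 0 carried 863 of the 6228 tested genes, and the falls described above as uncertain separate events lay on it. Against cyp61-, 15 of the 20 rises were called higher in the tagged strain and 19 of the 20 falls lower. Over all tested genes, 971 were called higher and 1033 lower against cyp61-. Choosing genes by size partly favours this, since both comparisons share the tagged libraries.

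Among the 20 rises, 3 had a lower mean in cyp61- than in wild type (N). The tenth, on contig 3, was 803.5 CPM in the tagged strain and 40.6 CPM in the double mutant. In cyp61- it was 78.5 CPM, below the 267 CPM of wild type (N) (a change of -1.77 on the log2 scale with an edgeR adjusted p = 5.79e-06). The fifteenth, on contig 6, was 885 CPM in the tagged strain and 51.1 CPM in the double mutant, with 199 CPM for cyp61- and 221 CPM for wild type (N). The sixteenth, on contig 4, was 990.3 CPM in the tagged strain and 57.4 CPM in the double mutant, with 141 CPM for cyp61- and 188 CPM for wild type (N). In the other set of tables the sixteenth stood at 1885 CPM in sre1- and 1265 CPM in wild type (Ne), both above the tagged strain. The eighth and eighteenth, with 42.38 and 88.7 CPM in sre1-, stood near the tagged strain (42.05 and 82.13 CPM). The other rises were below the tagged strain in sre1-. Some rises were also far higher in wild type (Ne) than in wild type (N). The fourth had 445 against 68.92 CPM, the sixth 89.87 against 6.766 CPM and the eighth 29.27 against 1.239 CPM. Only the eleventh, fifteenth and nineteenth were lower in wild type (Ne). For the fifteenth and sixteenth, cyp61- and wild type (N) did not differ past the threshold (edgeR adjusted p = 0.589 and 0.679). Set against cyp61-, the tenth, fifteenth and sixteenth were all higher in the tagged strain (log2 fold changes 3.35, 2.15 and 2.81, edgeR adjusted p at most 0.00995). Among the falls, the thirteenth, on contig 8, was 6.06 CPM in the tagged strain and 83.6 CPM in the double mutant, while cyp61- stood at 95.1 CPM, with no difference past the threshold from the double mutant (edgeR adjusted p = 0.914). The same gene was at 1807 CPM in sre1- and 211 CPM in wild type (Ne), a difference that did not pass the threshold (edgeR adjusted p = 0.934). The eleventh, on contig 6, was 1.83 CPM in the tagged strain and 29.2 CPM in the double mutant, while cyp61- had 4.68 CPM and wild type (N) 5.23 CPM. Outside that set of tables the same gene was at 51.2 CPM in sre1- and 37.5 CPM in wild type (Ne).

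Read counts were far less concentrated in the tagged strain. The 10 most abundant genes of each library held 8.49%, 9.54% and 8.48% of the counts in the tagged strain A, B and C, against 17.6%, 14.25% and 20.21% in the double mutant A, B and C. The most abundant gene of all 6 libraries, on contig 0, took 1.49%, 1.9% and 1.43% of the counts in the tagged strain, against 5.93%, 4.07% and 6.67% in the double mutant. It fell by 2.12 on the log2 scale (SE 0.30, edgeR adjusted p = 2.41e-05). Of the 10 genes with most counts in the double mutant, 9 were called lower in the tagged strain and 8 of them at least 2-fold, while none was called higher; over all genes 27.7% were called lower and 13.6% at least 2-fold lower. Choosing genes by a high level in the double mutant favours a lower value in the tagged strain, so these counts are a description. Of the 10 with most counts in the tagged strain, where the choice favours the opposite, 3 were called higher and 4 lower, and 4 genes stood in both lists.

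The 719 genes at least 2-fold higher held 18.8%, 17.14% and 19.5% of the counts in the tagged strain, against 4.28%, 4.74% and 3.79% in the double mutant. The 847 genes at least 2-fold lower held 13.34%, 15.2% and 12.45% in the tagged strain, against 39.32%, 34.41% and 42.35% in the double mutant. These shares describe genes chosen by their difference and are no test of it. The share called in each direction differed between levels, without a steady trend. Among 129 genes with a mean of 1000 CPM or more over the 6 libraries, 12.4% were called higher and 40.3% lower. Among 2503 genes between 30 and 100 CPM, 34.5% were called higher and 25.5% lower. The 1472 genes between 10 and 30 CPM were even, with 27.4% higher and 27.3% lower, and the 567 genes between 1 and 10 CPM leaned lower, with 20.1% higher and 31.7% lower.

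**Figure D3:**
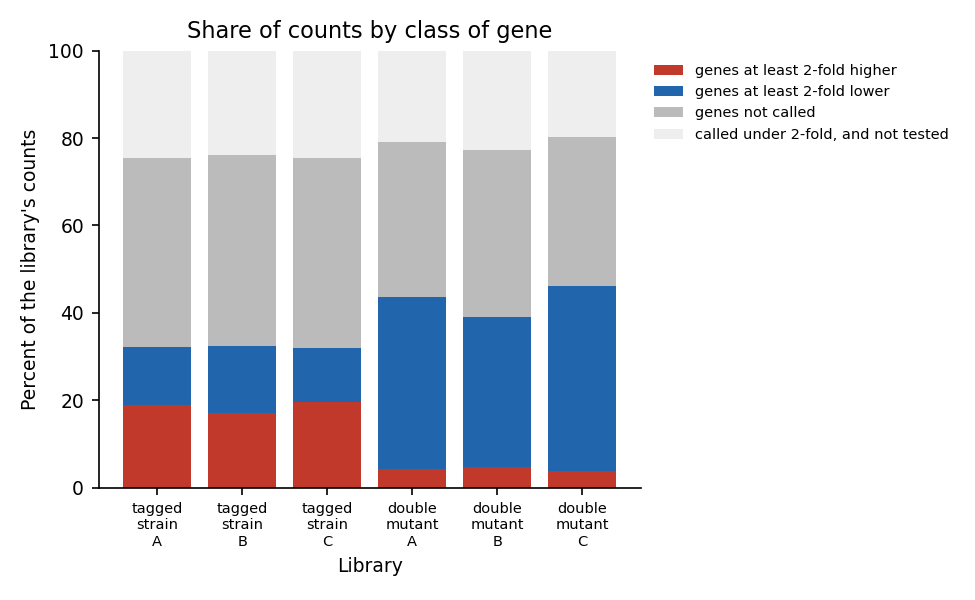
Stacked bars give the percent of each library's counts that fell on genes called at least 2-fold higher, at least 2-fold lower, not called, and on the rest. Genes of the lower class took 12.45% to 15.2% of counts in the tagged libraries and 34.41% to 42.35% in the double mutant libraries.

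Few genes were present in one strain and absent from the other. A single gene, on contig 3, had at least 10 CPM in every tagged library and under 1 CPM in every double mutant library. It had 124, 327 and 509 counts in the tagged strain A, B and C, against 8, 4 and 6 counts in the double mutant A, B and C. Its mean was 14.97 ± 4.19 CPM in the tagged strain and 0.33 ± 0.12 CPM in the double mutant (log2 fold change 5.49 ± 0.55, SE, edgeR adjusted p = 9.41e-07). In cyp61- it stood at 7.08 ± 3.53 CPM and in wild type (N) at 0.66 ± 0.14 CPM, so both the double mutant and wild type (N) had it low.

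The opposite pattern, at least 10 CPM in every double mutant library and under 1 CPM in every tagged library, was found for 2 genes. One on contig 8 had 5, 15 and 26 counts in the tagged strain A, B and C, against 270, 285 and 379 counts in the double mutant A, B and C. Its mean was 0.70 ± 0.27 CPM in the tagged strain and 17.7 ± 6.81 CPM in the double mutant (log2 fold change -4.55 ± 0.57, SE, edgeR adjusted p = 7.48e-06), with 5.90 CPM for cyp61- and 14.6 CPM for wild type (N).

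The other, on contig 10, had no count in any tagged library, which allows up to 0.268, 0.132 and 0.114 CPM in A, B and C (3 counts, counting error only), and 502, 384 and 154 counts in the double mutant. Its presence did not follow the strains elsewhere: 29, 290 and 0 counts were found in cyp61- A, B and C, 98, 0 and 0 in libraries A, B and C of wild type (N), and none in any library of sre1- or wild type (Ne). These 3 genes were chosen after their values were seen.

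The genes called in this comparison were spread over the genome. Of the 22 contigs, 11 carried 6412 of the 6469 genes, and the share of tested genes called on them ran from 52.1% on contig 6 to 61.6% on contig 5, close to the 57.4% of all genes. Contig 2 had the lowest share of genes at least 2-fold higher (7.55%, against 14.2% lower), and contig 6 the lowest share at least 2-fold lower (10.4%, against 13.6% higher). The other 11 contigs had 57 genes, of which 3 were tested and 2 called higher.

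Genes that changed in the same direction were often next to each other by number. The gene following a gene at least 2-fold higher was itself at least 2-fold higher in 19.8% of cases, against 11.1% of all genes that follow another. For genes at least 2-fold lower the shares were 24.6% and 13.1%. The next gene was of the opposite class in 7.95% of cases after a higher gene and 6.5% after a lower one. Runs of 3 or more neighbours in the same direction numbered 25 among higher genes (83 genes) and 43 among lower genes (142 genes). These shares are descriptions without a test, and overlapping gene models that count the same reads would add to them.

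The longest runs held 5 genes, 2 runs among higher and 4 among lower genes. The one on contig 3, with the seventh-ranked rise in it, had log2 fold changes from 1.98 to 5.22 (median 3.10). Its genes stood between 9.16 and 724 CPM in the tagged strain and between 0.31 and 36.9 CPM in the double mutant, all 5 with the groups apart. The other, on contig 6, had a median of 1.12 and 4 of 5 genes apart. Among lower genes, the run on contig 4 had log2 fold changes from -5.30 to -1.12 (median -2.42). Its genes stood between 0.0783 and 302 CPM in the tagged strain and between 4.16 and 659 CPM in the double mutant. The lowest of these levels rests on few counts. The runs of lower genes on contigs 8, 5 and 1 had medians of -1.99, -1.23 and -1.09. All 5 genes were apart in each run of lower genes.

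Levels in the other strains of the same set of tables placed the called genes on a common order. The log2(CPM + 1) of the 719 genes at least 2-fold higher stood above the double mutant by a median of 1.33 in the tagged strain (quartiles 1.11 and 1.73), 0.68 in cyp61- (0.45 and 1.01) and 0.18 in wild type (N) (0.00 and 0.36). The 847 genes at least 2-fold lower had medians of -1.36 in the tagged strain (quartiles -1.78 and -1.12), -0.62 in cyp61- (-0.91 and -0.35) and -0.17 in wild type (N) (-0.41 and 0.06). In both classes cyp61- took a middle place and wild type (N) lay close to the double mutant. The endpoints are the strains by which the genes were chosen, so this order is a description with no test. Counts of called genes over all tested genes do not depend on that choice. The double mutant against wild type (N) called 48 genes, and the tagged strain against wild type (N) called 3380. Between cyp61- and the double mutant, 1418 genes were called.

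Single genes differed in where cyp61- stood. On the log2(CPM + 1) scale, cyp61- lay nearer to the tagged strain than to the double mutant for 362 of the 719 higher genes and nearer to the double mutant for 357. Among the 847 lower genes it lay nearer to the tagged strain for 315 and nearer to the double mutant for 532. It lay beyond the double mutant, on the side away from the tagged strain, for 22 of the higher and 61 of the lower genes, and beyond the tagged strain for 24 of the higher and 19 of the lower genes. Wild type (N) lay nearer to the double mutant for 670 of the 719 and for 795 of the 847.

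**Figure D4:**
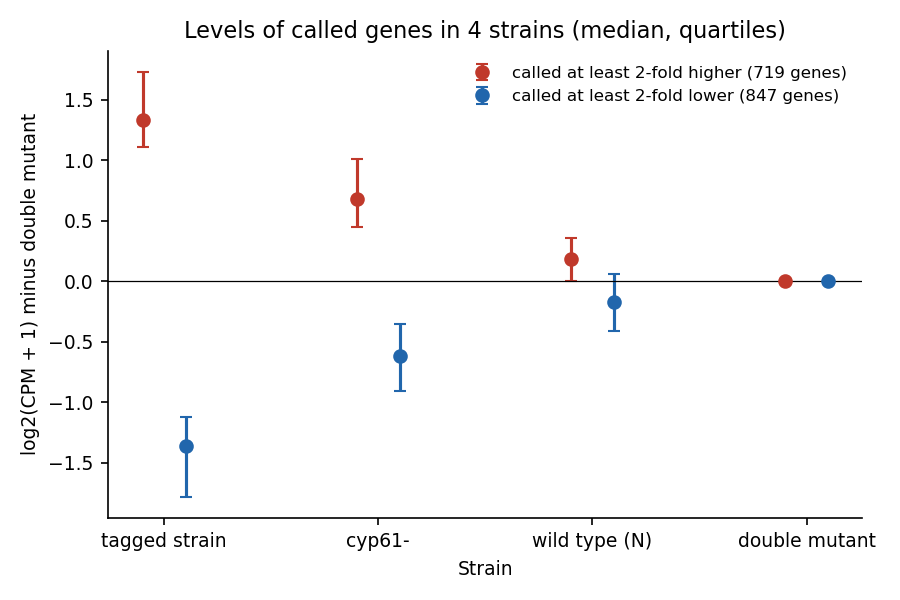
Points give the median, and bars the quartiles over genes, of log2(CPM + 1) minus its value in the double mutant, for 719 genes called at least 2-fold higher and 847 called at least 2-fold lower in the tagged strain. Medians for cyp61- are 0.68 and -0.62, and those for wild type (N) are 0.18 and -0.17.

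The comparison of cyp61- with wild type (N) shares no library with that of the tagged strain with the double mutant. It called 32.0% of the tested genes. Across 6228 genes, which are not independent replicates and were scaled and fitted together, the log2 fold changes of both comparisons correlated at 0.49 (Pearson) and 0.48 (Spearman). Among the 1047 genes that cyp61- had higher, 54.9% were called higher in the tagged strain than in the double mutant (29.7% of all genes were) and 9.17% lower. Of the 945 genes lower in cyp61-, 58.9% were called lower (27.7% of all genes were) and 6.56% higher.

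The genes that ran against this relation were a minority with large changes among them. Of the 1047 genes higher in cyp61-, 47 were at least 2-fold lower in the tagged strain than in the double mutant, where 13.6% of all genes were, with a log2 fold change as low as -2.80. Of the 945 lower in cyp61-, 13 were at least 2-fold higher in the tagged strain, where 11.5% of all genes were, the largest at 4.31, which is the tenth-ranked rise on contig 3. Among all 1566 genes called at least 2-fold, 1264 (80.7%) had the same sign in cyp61- against wild type (N). The same share over all tested genes was not computed, so whether 80.7% is particular to the called genes cannot be said.

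**Figure D5:**
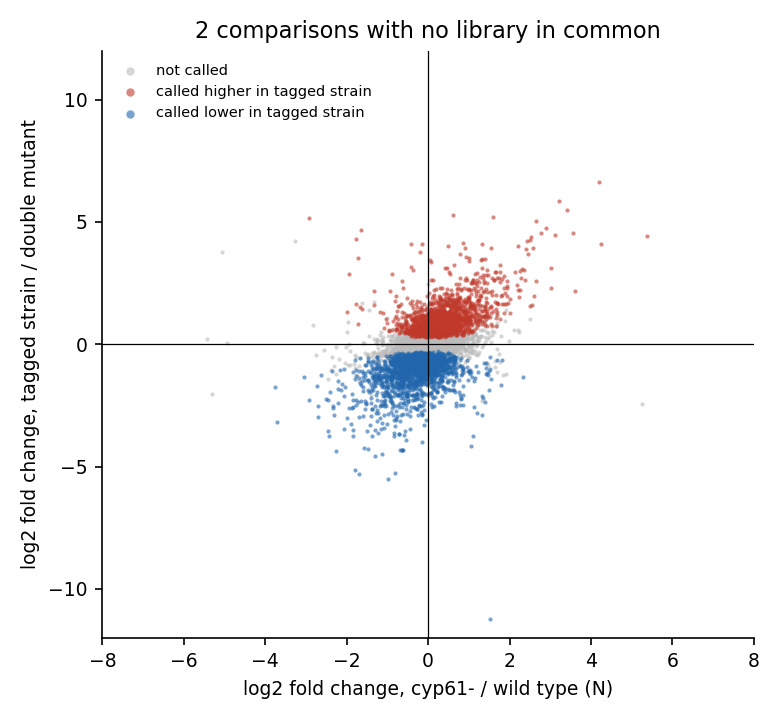
Each point is 1 gene, with its log2 fold change in cyp61- over wild type (N) on the horizontal axis and in the tagged strain over the double mutant on the vertical axis. The points scatter widely around a rising trend (Pearson correlation 0.49), and some genes far from 0 on the vertical axis lie near 0 on the horizontal one.

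Deletion of SRE1 in the wild-type background, from sre1- and wild type (Ne), gave a different picture over all genes and the same direction for a few. That comparison also shares no library with the present one, and it called 14 genes, 0.225% of those tested. Across 6228 genes its log2 fold changes correlated at -0.06 (Pearson) and 0.00 (Spearman) with those of the tagged strain against the double mutant. The biological coefficient of variation was 25.3% in sre1- and 27.6% in wild type (Ne), against 11.7% to 17.8% in the other groups. The part of this spread in the low number of calls and the low correlation was not tested. In the fit all groups share an estimate of spread per gene, so the standard errors and adjusted p of this comparison may be too small. The median log2 fold change in sre1- against wild type (Ne) was -0.04 for the 719 genes at least 2-fold higher and 0.01 for the 847 at least 2-fold lower, against 0.01 for all genes.

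The 11 genes that fell in sre1-, set against wild type (Ne), were all at least 2-fold higher in the tagged strain than in the double mutant, where 11.5% of all genes were. Their log2 fold changes ran from 2.03 to 6.64, with a median of 3.04 against 0.02 for all genes. Gene g904, the largest rise, was among them, with a log2 fold change of -1.93 ± 0.31 in sre1- (SE, edgeR adjusted p = 0.0175), as was g3516, the second, with -1.47 ± 0.27 (edgeR adjusted p = 0.0259). Neither of the largest falls passed the threshold in that comparison: g3687 had 0.34 ± 0.34 (edgeR adjusted p = 0.980) and g3088 had -0.32 ± 0.41 (edgeR adjusted p = 0.983). Of the 3 genes higher in sre1-, 1 was called lower in the tagged strain, where 27.7% of all genes were.

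Many genes were measured well enough to bound their change. Of the 2654 genes not called, 2240 had a 95% confidence interval of the fold change within 2-fold in either direction, and 1197 within 1.5-fold. These intervals take the TMM scaling as given, and library totals alone moved the median gene by 0.30 on the log2 scale. The genes not called held 43.35%, 43.81% and 43.39% of the counts in the tagged strain, against 35.62%, 38.2% and 34.22% in the double mutant.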

How the data were processed

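The authors deposited, per the file headers, the total count of reads per gene for each RNA-seq library, without normalization, with contig names that start with QXden1.PacBioOnly. Per the series' design text, reads were paired-end. How reads were counted, on which gene models and with or without strand, was not given in the sources used here. Counts of near-identical, antisense or overlapping genes may therefore mix. Of tools, the submitters' processing notes list Bowtie2 2.3.5.1, edgeR and DESeq2 among others, without saying what each was used for. The column names of wild type (Ne) match its group but no single sample, so its libraries carry no replicate letter.

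From the deposited counts, edgeR 4.0.16 (limma 3.58.1, R 4.3.3) kept 6228 genes with filterByExpr, scaled libraries by TMM and fitted all 18 libraries by quasi-likelihood with group as the only term. The contrast was the tagged strain minus the double mutant, with Benjamini-Hochberg adjustment over all genes tested and glmTreat for the test against 2-fold. Each standard error is the absolute log2 fold change over the square root of F. CPM values are scaled by TMM. The procedure was tested on simulated data. Genes were named by size among those with adjusted p under 0.05, at least 2-fold, a mean of at least 10 CPM and groups apart, 2 per direction by identifier and up to 20 by rank. The comparison, gene sets and rules were chosen with earlier results of these data known. DESeq2 1.42.0, other filters, scalings and sample sets, and leaving out each library were tried. Replicate libraries of each strain differed by far more than sampling noise (chi-square per gene 52.9 to 177). Limits given for a gene without counts cover counting error only. The 95% confidence intervals of fold changes come from the fit and include the spread between replicate libraries. Levels measured in a culture do not separate fewer expressing cells from less RNA per cell. ChIP-exo peak lists were not used here.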

Additional observations from a re-analysis of the deposited data

How the results depend on the processing

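The count of 3574 called genes lay between 3159 and 3997 under 16 alternatives, and no gene called changed direction except 2 with library totals alone. DESeq2 called 3697 genes, the 6 libraries fitted alone 3676, the 12 libraries from paired, trimmed reads 3997, and counts thinned to the smallest library 3503. With library totals alone, 1055 genes were called lower in place of 1727. Without each library in turn the count was 3159 to 3376. The count of genes past the 2-fold threshold test moved more. It was 643 in the main fit, 444 with DESeq2 (the lowest) and 775 with the 12 libraries from paired, trimmed reads (the highest). All 639 log2 fold changes of the 40 genes of largest change kept their direction and their side of the threshold; DESeq2 gave no adjusted p for the thirteenth fall.

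The letters were not taken to pair libraries of the 2 strains, because the labels do not say that a letter marks a shared culture or day. Over 5566 genes, the correlations of deviations were -0.22, -0.06 and -0.02 for same-letter libraries A, B and C. For libraries of different letters they ran from -0.05 to 0.19. With the replicate block, 3740 genes were called in 15 libraries (wild type (Ne) has no letters) and 3494 in the 6 libraries. Of 95 genes with a mean under 1 CPM, 32.6% were called, against 60% of those between 30 and 100 CPM; the part of depth in this was not tested.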
